A study of Drosophila melanogaster with 6 samples.

Results

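Genes that bind, store, import and sense metals were measured in intestinal stem cells (ISCs) of the adult fly midgut in which NF-YA, a subunit of the transcription factor NF-Y, was knocked down by RNAi, and in control ISCs. The set holds 4 metallothioneins (MtnA, MtnB, MtnC and MtnD), both chains of secreted ferritin (Fer1HCH and Fer2LCH), a divalent metal transporter (Mvl), a copper importer (Ctr1A) and 2 regulators (Irp-1A and MTF-1). The genes were chosen by symbol from the deposited gene table, and all 10 were found among its 8470 genes.

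Metallothioneins are small, cysteine-rich proteins that bind copper, zinc and cadmium, and their genes are switched on by the metal-responsive factor MTF-1. In flies, ferritin is assembled from heavy and light chains in the secretory pathway and stores iron, and a band of midgut cells is known for its iron-loaded ferritin. Irp-1A is the fly protein that can work either as a cytosolic aconitase or as a binder of iron-responsive elements in mRNAs, depending on iron.

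The study compared 3 NF-YA RNAi libraries, named 2, 4 and 5, with 3 control libraries, named 1, 2 and 3, all from midguts of adult female flies. Flies of both groups carried Esg-Gal4-ts with a YFP reporter (UAS-2x YFP) and the Gal4 inhibitor Gal80 under the enteroblast element Su(H)-GBE, a design that directs RNAi and YFP to ISCs at the inducing temperature. The RNAi flies carried line 106132 of the VDRC collection against NF-YA, and the controls came from a cross to Oregon R, a wild-type strain, so that the groups also differ in strain background and rest on a single RNAi line. By the labels, flies spent 3 days in the cold, then 3 days in the warmth that induces RNAi, and a last 3 days on holidic food, a chemically defined diet, whereas the sequencing methods give 3 warm days on this diet. YFP-positive cells were sorted, and their mRNA was sequenced as paired 75-base reads.

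The libraries held between 77092609 and 118463169 estimated read counts in NF-YA RNAi and between 98240298 and 122269943 in the control. Library 5 of NF-YA RNAi was the shallowest. The targeted gene Nf-YA had 3.58, 4.92 and 4.30 CPM, read counts relative to the normalized library size, in NF-YA RNAi, against 16.0, 19.7 and 23.6 CPM in the control. Its log2 fold change was -2.21 (SE 0.20, adjusted p = 0.000203). Across 9080 genes tested with edgeR's quasi-likelihood test and Benjamini-Hochberg adjustment, 8.02% fell and 6.19% rose in NF-YA RNAi at an adjusted p under 0.05, and the CPM of the groups did not overlap for 35.9%. Among the 10 metal genes, 1 fell (MtnB), 0 rose and 2 had groups that did not overlap (MtnB and Mvl). No member rose at an unadjusted p under 0.05 in edgeR or at the threshold in DESeq2 either. The median log2 fold change was -0.26 over the 10 genes and -0.02 over all genes tested. Because RNA was measured in bulk, fewer cells of a type and less RNA per cell cannot be told apart.

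The sorted cells were checked against markers of midgut and other cell types. Of 5 progenitor markers listed, Dl was not matched by symbol and so is missing from this check. The other 4 (esg, N, Sox21a and sc) summed to 732.9 to 840.8 CPM in NF-YA RNAi and 906.9 to 1030 CPM in the control. Among them esg fell (log2 fold change -0.62, adjusted p = 0.00714), and sc was at most 0.573 CPM in any library. Of 13 enterocyte markers, 6 fell, and their sum was 322.6 to 1313 CPM in NF-YA RNAi against 1837 to 5207 CPM in the control. The direction was not common to the whole list, since the enterocyte transcription factor nub had 13.4, 10.7 and 8.11 CPM in NF-YA RNAi, against 6.87, 7.53 and 7.80 CPM in the control (log2 fold change 0.54, adjusted p = 0.108), and mex1 had a log2 fold change of 0.46 (adjusted p = 0.617). Of 10 enteroendocrine markers, 4 fell, with sums of 470.2 to 1092 CPM in NF-YA RNAi and 1657 to 2096 CPM in the control. The 3 markers of the copper cell region, the acid-secreting part of the midgut, summed to between 104.4 and 131.6 CPM in NF-YA RNAi and to between 163.4 and 212.8 CPM in the control, and 1 of them (lab) fell. Visceral muscle, hemocyte and fat body markers were low. Their sums were at most 13.0, 1.97 and 1.59 CPM in NF-YA RNAi and at most 44.7, 11.1 and 1.69 CPM in the control. The highest muscle sum was that of control library 1, against 12.8 and 10.3 CPM in control libraries 2 and 3. Of 9 muscle, 2 hemocyte and 3 fat body markers tested, 1 (sls), 1 (Col4a1) and 0 fell. Log2 fold changes were below 0 for all 9 muscle markers, the 2 hemocyte markers and 1 of the 3 fat body markers. The hemocyte marker He and the fat body marker Lsp2 were at 0 in all 6 libraries. The part of these cell types in the values of the metal genes was not tested.

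Per transcript length, the ferritin chains and MtnA were far above the other genes. In TPM, a relative transcript level that corrects for length, Fer1HCH averaged 766.7 ± 42.3 in NF-YA RNAi and 840.1 ± 117.3 in the control (SD, n = 3 each). Fer2LCH averaged 670.1 ± 53.9 TPM in NF-YA RNAi and 736.6 ± 74.6 TPM in the control. MtnA averaged 487.9 ± 133.3 TPM in NF-YA RNAi and 473.8 ± 69.8 TPM in the control. These 3 genes stood between places 119 and 281 of all genes when ordered by TPM within a library. MtnA was below both ferritin chains in every library, and the levels of the chains overlapped in the control but not in NF-YA RNAi. MtnB and MtnD followed, with 20.9 ± 14.0 and 44.1 ± 31.2 TPM in NF-YA RNAi, against 71.9 ± 27.5 and 62.0 ± 15.1 TPM in the control. Their order was therefore MtnD above MtnB in NF-YA RNAi and MtnB above MtnD in the control, but the libraries of the genes overlapped within each group. Irp-1A (17.7 ± 1.51 TPM in NF-YA RNAi, 17.0 ± 1.65 TPM in the control) and MTF-1 (12.5 ± 1.10 TPM in NF-YA RNAi, 14.1 ± 2.05 TPM in the control) came next. Mvl, MtnC and Ctr1A were lowest, with means of 6.06, 3.10 and 4.93 TPM in NF-YA RNAi and 7.28, 5.08 and 3.94 TPM in the control, and MtnC overlapped both others within each group.

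**Figure D1:**
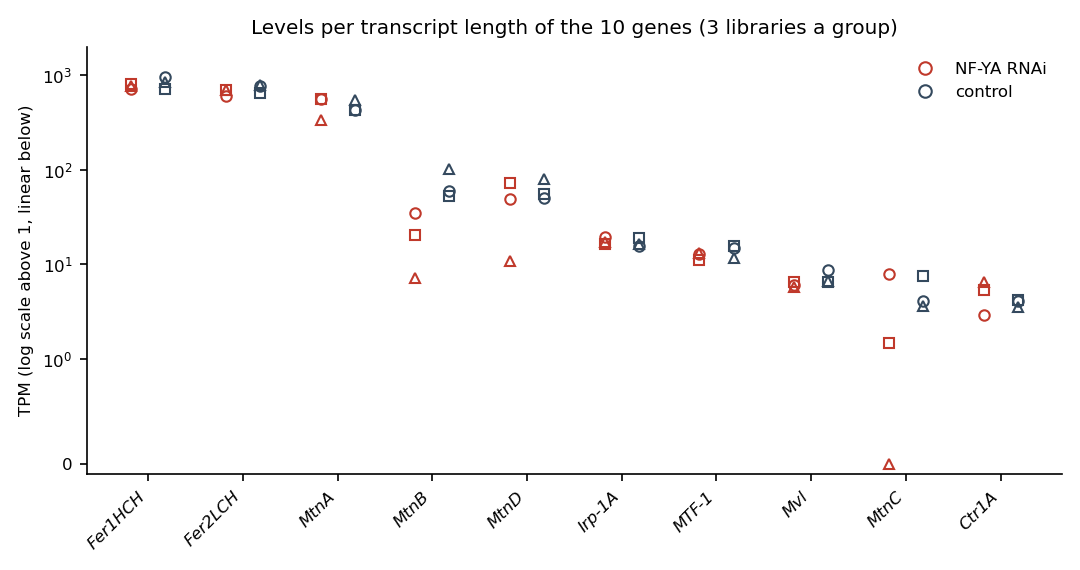
Level per transcript length (TPM; log scale above 1 and linear below) of the 10 genes in each library, with NF-YA RNAi left of control and each point a library. Fer1HCH, Fer2LCH and MtnA lie at 334.1 TPM or more in all 6 libraries, and MtnC is at 0 TPM in NF-YA RNAi library 5.

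MtnB was the metallothionein that fell. It lies on chromosome 3R from 20503102 to 20503746 on the minus strand (FBgn0002869, release 6 assembly, annotation BDGP6.54), and 3 transcripts with the same coding sequence of 129 bases are annotated. In the authors' normalized counts, MtnB had 472.4, 275.4 and 96.8 in NF-YA RNAi libraries 2, 4 and 5, against 880.0, 714.3 and 1494 in control libraries 1, 2 and 3. The highest NF-YA RNAi library was below the lowest control library, and within NF-YA RNAi library 5 was lowest. MtnB fell to 27.0% of its control level, a log2 fold change of -1.89 (SE 0.49, 95% interval -2.999 to -0.781, adjusted p = 0.0337 by edgeR). The short transcript MtnB-RA held at least 98.6% of the gene's TPM in NF-YA RNAi and at least 99.6% in the control.

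The direction of MtnB was the same in each of the 14 alternative analyses, with log2 fold changes between -2.48 and -1.16 and adjusted p between 0.000213 and 0.107, and it passed the threshold in 10 of them. It did not pass without NF-YA RNAi library 4 (adjusted p = 0.107) or library 5 (adjusted p = 0.0542), nor without control library 1 (adjusted p = 0.0761) or library 3 (adjusted p = 0.0909). Enterocyte markers summed to 1313, 521.9 and 322.6 CPM in NF-YA RNAi libraries 2, 4 and 5, the same order as MtnB, whereas in control libraries 1, 2 and 3 they summed to 5207, 2132 and 1837 CPM and MtnB was highest in library 3. Copper cell region markers summed to 104.4, 114.7 and 131.6 CPM in NF-YA RNAi libraries 2, 4 and 5, the reverse order of MtnB. Their sums were 212.8, 163.4 and 181.3 CPM in control libraries 1, 2 and 3. One of them, lab, had 32.04, 30.59 and 42.05 CPM in these control libraries, the same order as MtnB. In NF-YA RNAi, lab had 13.66, 10.72 and 12.61 CPM, which is not the order of MtnB. The part of enterocyte or copper cell RNA in the level of MtnB was not tested.

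The other metallothioneins did not pass the test. MtnA, the most abundant one, lies on chromosome 3R (9783407 to 9784370, minus strand, FBgn0002868) and overlaps no other annotated gene. It had 8341, 8479 and 5025 normalized counts in NF-YA RNAi libraries 2, 4 and 5, against 7098, 6488 and 8855 in control libraries 1, 2 and 3. NF-YA RNAi libraries 2 and 4 were above 2 of the control libraries and library 5 was below all of them. The log2 fold change of MtnA was -0.06 (SE 0.20, 95% interval -0.50 to 0.38, adjusted p = 0.891), and its sign was positive with scaling by library size alone.

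MtnD lies 31215 bases from MtnB on the other strand (chromosome 3R, 20534962 to 20535301, FBgn0053192). It had 432.1, 643.4 and 97.2 normalized counts in NF-YA RNAi, against 493.3, 500.2 and 751.7 in the control. Library 5 of NF-YA RNAi was again the lowest, while library 4 lay within the control range. Its log2 fold change was -0.61 (SE 0.53, 95% interval -1.80 to 0.58, adjusted p = 0.503).

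MtnC (chromosome 3R, 20360308 to 20360634, plus strand, FBgn0038790) has a transcript of 268 bases and had the lowest estimated counts of the 10 genes. Its estimated read counts were 70, 14 and 0 in NF-YA RNAi libraries 2, 4 and 5, and 37, 61 and 37 in control libraries 1, 2 and 3. The 0 in library 5 allows up to 3 counts, or 0.0389 CPM, by counting error alone. The interval of its log2 fold change, -4.08 to 2.39, was the widest of the 10 genes.

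Summed over the 4 genes, metallothionein levels were 651.2, 664.7 and 352.1 TPM in NF-YA RNAi, against 548.1, 549.6 and 740.7 TPM in the control, and the groups overlapped. MtnA made up 85.9, 85.8 and 94.9% of this sum in NF-YA RNAi libraries and 79.1, 78.8 and 74.9% in control libraries, so that the groups did not overlap in this share. The sum without MtnA was 91.7, 94.7 and 18.0 TPM in NF-YA RNAi, against 114.3, 116.4 and 186.3 TPM in the control. These sums were formed after the single genes were seen and were not tested. The remaining family members were MtnE, with 10.2, 18.8 and 4.28 CPM in NF-YA RNAi and 17.9, 12.8 and 23.0 CPM in the control (log2 fold change -0.69, SE 0.43, adjusted p = 0.335), and MtnF, which was at 0 in NF-YA RNAi and at no more than 0.125 CPM in the control. With MtnE and MtnF added, the metallothionein sum was 719, 787.3 and 380.5 TPM in NF-YA RNAi, against 656.2, 630.4 and 878.7 TPM in the control. Adding genes to the sum can only lower the share of MtnA, and the larger sum was not tested either. All 5 measurable metallothioneins were lowest in NF-YA RNAi library 5 of all 6 libraries. The metallothionein genes are short and related in sequence, and how reads were shared among them was not tested.

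**Figure D2:**
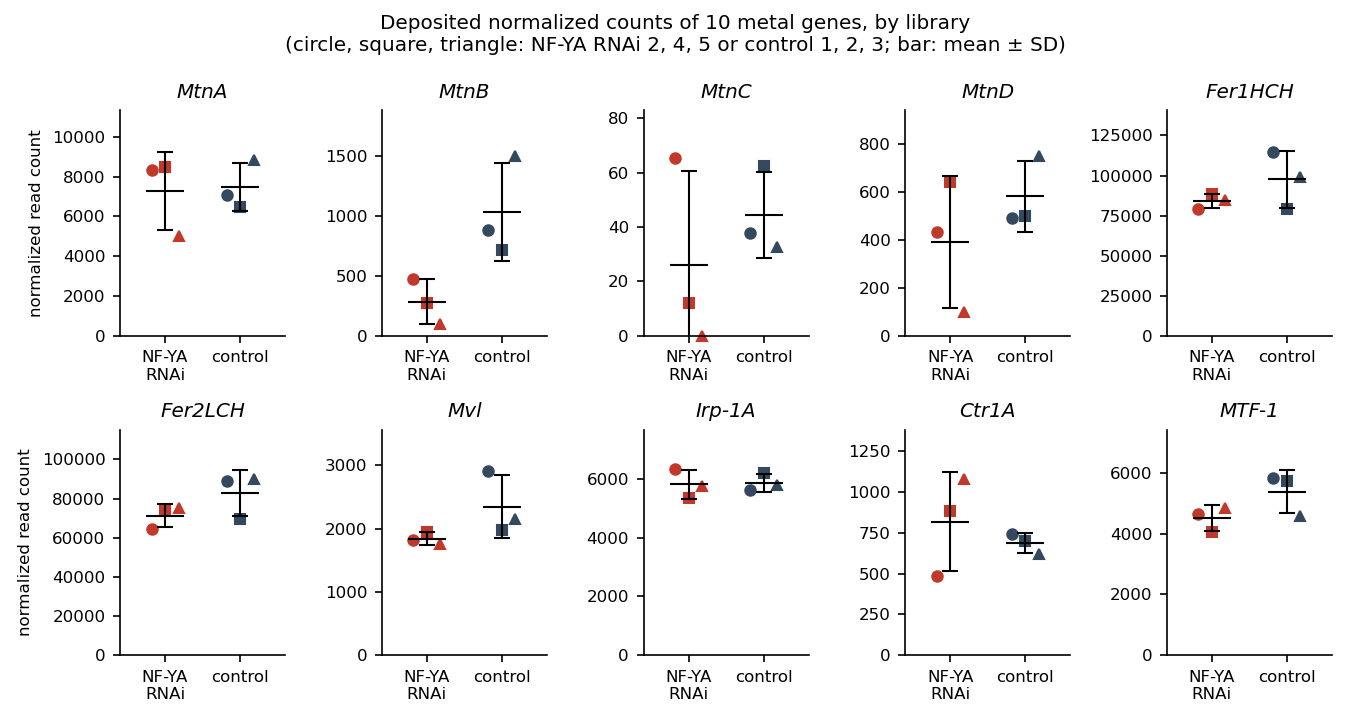
Normalized read counts, as deposited, of the 10 genes in each library (points), with NF-YA RNAi left of control and horizontal and vertical bars for the mean ± SD of 3 libraries, cut at 0. For MtnB and Mvl all NF-YA RNAi points lie below all control points, whereas for the other 8 genes the groups overlap.

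The ferritin chains did not pass the test. Their genes are neighbors on chromosome 3R that are transcribed away from each other, Fer1HCH on the minus strand (30385573 to 30388178, FBgn0015222) and Fer2LCH on the plus strand (30387804 to 30390584, FBgn0015221). The annotated genes share 375 bases at their starts. On the light chain side Fer2LCH-RA is the only transcript that reaches these bases, and it held at most 0.0675% of the gene's TPM in NF-YA RNAi and at most 0.104% in the control. On the heavy chain side Fer1HCH-RA covers the whole stretch, and RB, RC, RD, RE and RG reach into it.

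Fer1HCH, the heavy chain with the site that oxidizes iron, had 79322, 88396 and 84602 normalized counts in NF-YA RNAi, against 114668, 79177 and 99168 in the control. In these counts control library 2 was just below all NF-YA RNAi libraries, and the other control libraries were above them. In CPM, scaled as in the test, control library 2 (780.7) was above NF-YA RNAi library 2 (760.1). Its log2 fold change was -0.24 (SE 0.12, 95% interval -0.50 to 0.02, adjusted p = 0.200).

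Fer2LCH, the light chain that helps the shell to mineralize iron, had 64522, 73948 and 75396 normalized counts in NF-YA RNAi, against 89130, 69522 and 90138 in the control. The groups overlapped through control library 2, as for the heavy chain. For the light chain, the log2 fold change was -0.23 (SE 0.11, 95% interval -0.48 to 0.03, adjusted p = 0.223).

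The ratio of heavy to light chain mRNA in TPM was 1.19, 1.16 and 1.09 in NF-YA RNAi libraries 2, 4 and 5, and 1.25, 1.10 and 1.07 in control libraries 1, 2 and 3. The log2 ratio differed by 0.01 between NF-YA RNAi and the control (exact two-sided permutation test, p = 0.9, where 3 libraries against 3 cannot go below 0.1). The ratio was above 1 in all 6 libraries and its range in NF-YA RNAi lay inside that of the control. From estimated counts in place of TPM the log2 difference was -0.01 (exact two-sided permutation test, p = 0.9).

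Fer1HCH had 9 annotated transcripts, and its estimates were divided mainly among 4 of them. Fer1HCH-RF starts inside the gene and has a coding sequence of 726 bases, longer by an extra coding exon than the 615 bases of the transcripts RA, RB, RC and RD. It held 27.1, 49.8 and 43.4% of the gene's TPM in NF-YA RNAi, against 40.7, 19.9 and 36.9% in the control. The share was lowest in NF-YA RNAi library 2 and control library 2 of their groups, and the groups overlapped (exact two-sided permutation test, p = 0.5). The 615-base form held 68.4, 46.5 and 52.2% in NF-YA RNAi, against 55.5, 75.3 and 59.2% in the control, and varied in the opposite way. In flies, some Fer1HCH transcripts carry an iron-responsive element in the 5′ untranslated region, and RB, RC and RD differ from each other only there. Fer1HCH-RB held 41.1, 24.1 and 24.4% in NF-YA RNAi, against 29.5, 40.3 and 31.5% in the control (exact two-sided permutation test, p = 0.6). Fer2LCH was simpler, with 80.4 to 83.4% of its TPM in Fer2LCH-RC in NF-YA RNAi and 80.6 to 86.6% in the control.

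**Figure D3:**
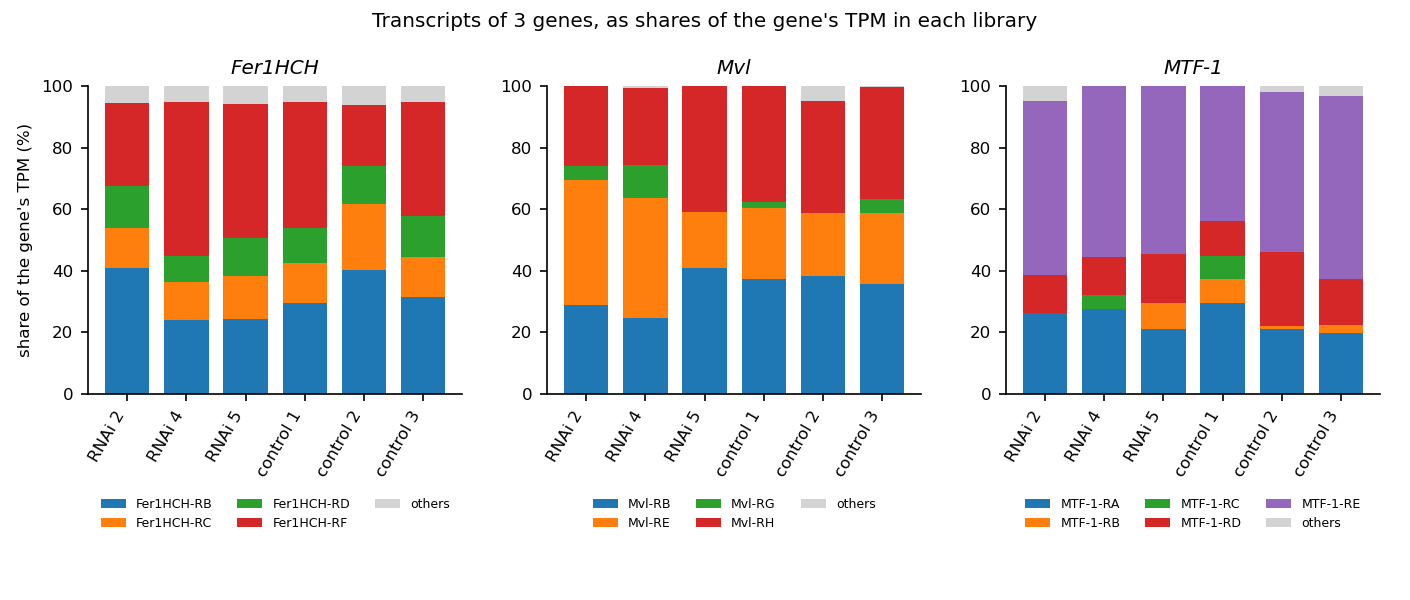
Share of the gene's TPM (%) held by each transcript of Fer1HCH, Mvl and MTF-1 in each library, with NF-YA RNAi left of control; transcripts that never reach 5% are joined as others. Fer1HCH-RF varies between 27.1 and 49.8% in NF-YA RNAi and between 19.9 and 40.7% in the control, the split between Mvl-RB and Mvl-RH is not informative, and Mvl-RE is near 40% in NF-YA RNAi libraries 2 and 4 only.

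Among the other iron carriers, the mitochondrial ferritin Fer3HCH was at 0 in all libraries. Transferrin 1 (Tsf1), an iron-binding protein of the hemolymph, was at 0 in all NF-YA RNAi libraries, which allows up to 3 counts in each, against 0.396, 0.215 and 0.0923 CPM in control libraries 1, 2 and 3, which are 41, 21 and 11 estimated counts, and did not pass the test (adjusted p = 0.0655). Tsf2, a transferrin of the septate junctions, had 3.29 ± 0.815 CPM in NF-YA RNAi and 4.23 ± 0.614 CPM in the control (SD, n = 3 each). Tsf3 was at most 0.360 CPM in NF-YA RNAi and 0.743 CPM in the control.

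Mvl (Malvolio, FBgn0011672, chromosome 3R, 21051383 to 21060800, minus strand) is the fly member of the NRAMP family, which moves divalent iron and manganese across membranes. It had 1824, 1952 and 1754 normalized counts in NF-YA RNAi, against 2913, 1980 and 2147 in the control. The groups did not overlap, but the gap between NF-YA RNAi library 4 and control library 2 was small, and control library 1 stood apart. The log2 fold change was -0.35 (SE 0.16, unadjusted p = 0.0497, adjusted p = 0.170), and it was -0.18 (adjusted p = 0.497) without control library 1. Mvl-RE, which shares its coding sequence of 1788 bases with 2 other transcripts, held 40.7, 39.2 and 18.1% of the TPM in NF-YA RNAi, against 22.9, 20.4 and 23.0% in the control (exact two-sided permutation test, p = 0.4). Libraries 2 and 4 of NF-YA RNAi stood apart from library 5, which was nearer to the control libraries in this share. Mvl-RB and Mvl-RH have the same ends and length and differ in where the reading frame stops, so their separate estimates were not used.

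Ctr1A (FBgn0062413, chromosome X, 6661647 to 6668258, plus strand) encodes a high-affinity copper importer of the cell surface. It had 485.9, 882.0 and 1083 normalized counts in NF-YA RNAi libraries 2, 4 and 5, against 740.3, 701.4 and 619.5 in control libraries 1, 2 and 3. Library 2 of NF-YA RNAi was below all control libraries and libraries 4 and 5 were above them. The log2 fold change was 0.25 (SE 0.28, 95% interval -0.37 to 0.87, adjusted p = 0.606), and it was the only positive one among the 10 genes in this fit. In NF-YA RNAi library 5, where the metallothioneins were lowest, Ctr1A was highest. Ctr1A-RD, with a coding sequence of 723 bases, held 76.4 to 86.9% of the TPM in NF-YA RNAi and 73.6 to 79.3% in the control.

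Its relative Ctr1B, a copper importer that MTF-1 is known to induce when copper is scarce, had 5.67, 6.75 and 3.46 CPM in NF-YA RNAi, against 3.12, 3.39 and 2.95 CPM in the control. The groups did not overlap, and the log2 fold change was 0.75 (SE 0.28, adjusted p = 0.113). Ctr1C was at 0 in all libraries.

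**Figure D4:**
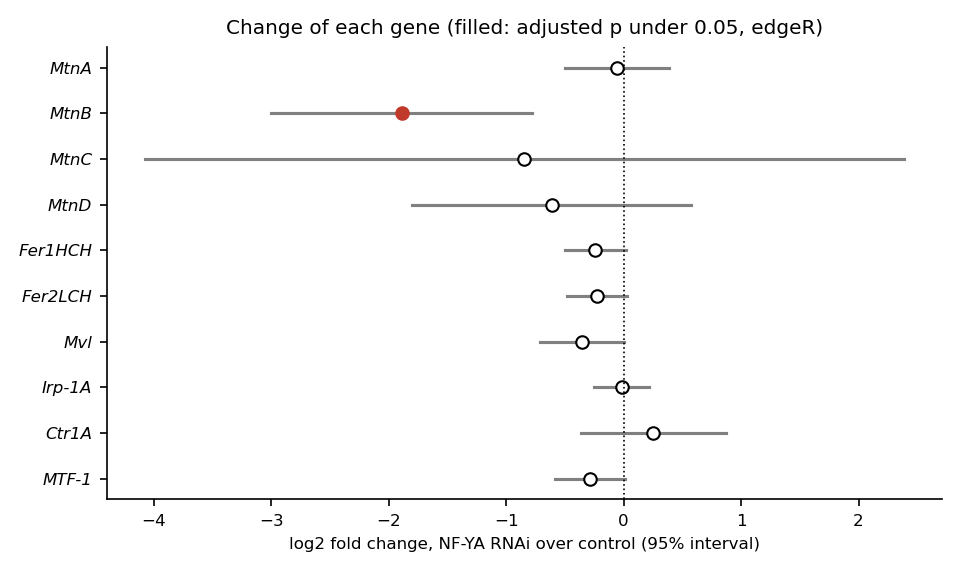
Log2 fold change of NF-YA RNAi over control for each of the 10 genes (points), with the 95% interval from the standard error of edgeR's fit (lines) over 3 libraries a group. MtnB is the only filled point, at -1.89, and MtnC has the widest interval.

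Of the regulators, Irp-1A (FBgn0024958, chromosome 3R, 22721320 to 22724587, minus strand) had the log2 fold change nearest to 0 of the 10 genes. Its values were 6357, 5373 and 5755 normalized counts in NF-YA RNAi, against 5621, 6195 and 5792 in the control, and the groups were interleaved. The log2 fold change was -0.02 (SE 0.10, 95% interval -0.25 to 0.22, adjusted p = 0.941), with a positive sign under scaling by library size alone. Its relative Irp-1B, an aconitase without known iron-responsive element binding in flies, had 71.4 ± 6.33 CPM in NF-YA RNAi and 71.3 ± 5.89 CPM in the control (log2 fold change 0.00, adjusted p = 0.994). Irp-1A shares 240 bases with an antisense RNA gene, asRNA:CR45648, and the strand setting of the counting is not given in the sources used here.

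MTF-1 (FBgn0040305), the zinc finger factor that binds metal response elements in metallothionein promoters, had 4649, 4047 and 4854 normalized counts in NF-YA RNAi, against 5847, 5726 and 4576 in the control. Control library 3 lay inside the NF-YA RNAi range and the other control libraries lay above it. For MTF-1, the log2 fold change was -0.28 (SE 0.13, 95% interval -0.58 to 0.01, adjusted p = 0.190). MTF-1-RE was the leading transcript of 7, with 54.6 to 56.4% of the TPM in NF-YA RNAi and 44.0 to 59.3% in the control.

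MTF-1 is also a near neighbor of the targeted gene. It spans 9430312 to 9439490 on the plus strand of chromosome 3L, and Nf-YA lies on the minus strand from 9440056 to 9442267, with 565 bases between them. The gene Bet3 spans 9438482 to 9442267, so that it covers Nf-YA on the same strand and shares 1009 bases with the end of MTF-1 on the opposite strand. Bet3, a subunit of a vesicle tethering complex, had 14.2 ± 1.68 CPM in NF-YA RNAi and 14.7 ± 2.37 CPM in the control (SD, n = 3 each; log2 fold change -0.05, adjusted p = 0.892). Neither neighbor passed the test that Nf-YA passed. CG42526 also lies inside the span of MTF-1 on the opposite strand (1714 bases, introns of MTF-1 included). It ends at 9435399, and the leading transcript MTF-1-RE starts beyond it, at 9435536. Reads from exons that such overlapping genes share cannot be told apart if strand was not used. A further RNA gene, asRNA:CR45872, shares 467 bases with MTF-1 on the same strand, where strand would not separate them.

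Beyond the 10 genes, 48 further genes of metal handling were listed by role, and 39 of them passed the filter on low counts. In NF-YA RNAi, 4 of these rose and 1 fell, against 6.19 and 8.02% of all genes tested. Log2 fold changes were above 0 for 24 of the 39, against 4387 of all 9080 genes tested. The median was 0.14 in the list and -0.02 over all genes tested. Of the genes of heme synthesis and breakdown, all 9 tested had log2 fold changes above 0 (0.14 to 0.66, median 0.32), and 2 of them (Coprox and Urod) passed the test.

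Coprox, the coproporphyrinogen oxidase of heme synthesis, had 117.3, 146.7 and 143.7 CPM in NF-YA RNAi, against 86.4, 84.8 and 97.4 CPM in the control. The groups did not overlap, and Coprox rose by a log2 fold change of 0.60 (SE 0.11, adjusted p = 0.00977). It passed the threshold in all 14 alternative analyses.

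Urod, which acts just before Coprox in the pathway, rose with 100.7, 102.0 and 110.5 CPM in NF-YA RNAi, against 80.5, 82.6 and 86.7 CPM in the control (log2 fold change 0.33, adjusted p = 0.0416). Frataxin (fh), which takes part in assembling iron-sulfur clusters in mitochondria, rose with 12.9, 14.7 and 14.9 CPM in NF-YA RNAi, against 9.87, 9.27 and 10.2 CPM in the control (log2 fold change 0.53, adjusted p = 0.0344). Cox17, a chaperone that brings copper to cytochrome c oxidase, rose with 30.6, 42.6 and 36.5 CPM in NF-YA RNAi, against 27.1, 24.4 and 27.3 CPM in the control (log2 fold change 0.48, adjusted p = 0.0474). For all 3 genes the groups did not overlap.

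Zip99C, a ZIP transporter known in flies to move iron into the secretory pathway, fell with 16.2, 19.1 and 9.90 CPM in NF-YA RNAi, against 27.4, 26.4 and 23.4 CPM in the control (log2 fold change -0.77, adjusted p = 0.0418). With each library left out in turn, directions were kept but most of these calls were lost. Urod passed in 0 of 6 such fits, with log2 fold changes of 0.30 to 0.36 and adjusted p between 0.0582 and 0.143. For fh the log2 fold change stayed between 0.50 and 0.60, for Cox17 between 0.35 and 0.59, and for Zip99C between -0.98 and -0.53. Cox17, fh and Zip99C each passed in 1 of the 6, with adjusted p up to 0.178, 0.117 and 0.127. Cox17 and fh passed without NF-YA RNAi library 2 and Zip99C without NF-YA RNAi library 4.

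**Figure D5:**
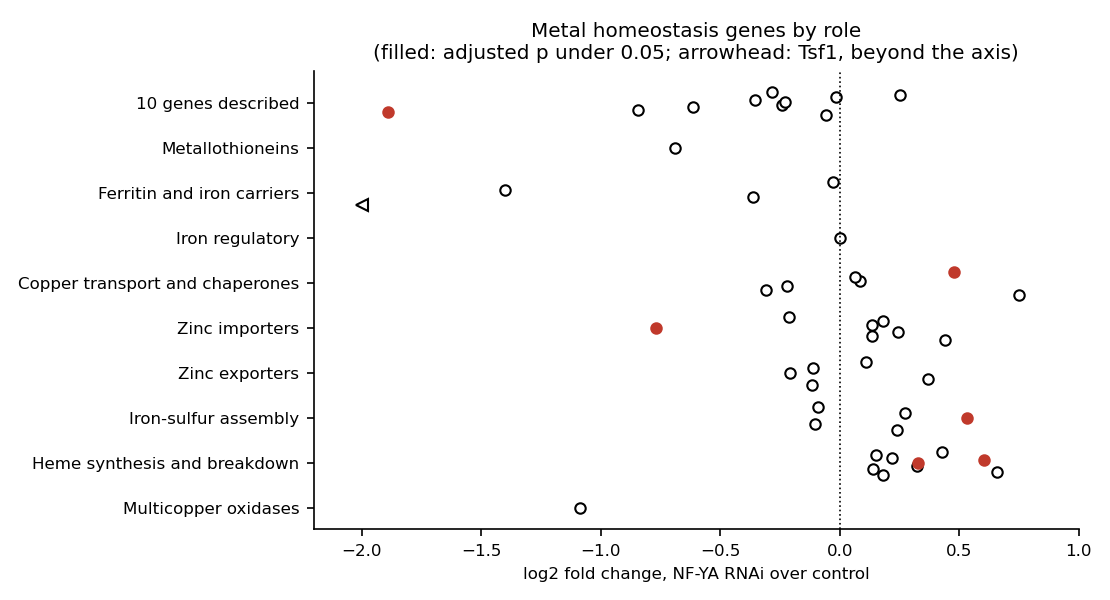
Log2 fold change of NF-YA RNAi over control for the 10 genes described (top row) and 39 further metal genes by role; filled points have an adjusted p under 0.05 and points within a row are spread vertically for legibility. All 9 heme genes lie right of 0, and the filled points are MtnB, Zip99C, Cox17, fh, Urod and Coprox.

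Finally, the genes whose pattern was most like that of MtnB over the 6 libraries were found by Pearson's r of log2 CPM. They were CG12974 (r = 0.99), CG11378 (r = 0.99), DhpD (r = 0.99), RIOK2 (r = 0.99) and CG6006 (r = 0.99), and 80 of 9079 genes had an r above 0.95. CG12974 had 8.46, 6.29 and 4.50 CPM in NF-YA RNAi, against 11.6, 10.4 and 14.2 CPM in the control, so that it too was lowest in NF-YA RNAi library 5 and highest in control library 3. CG11378 had 487.0, 450.2 and 369.0 CPM in NF-YA RNAi, against 573.3, 555.6 and 661.1 CPM in the control. The order was not the same in all 5 genes. Within the control, MtnB was lowest in library 2, whereas DhpD and RIOK2 were lowest in library 1. These values describe a similar pattern over only 6 libraries, which all genes have in common. The 5 genes were picked for this likeness, so their shared order with MtnB is not a separate result.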

How the data were processed

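The authors sequenced YFP-sorted midgut cells and deposited, for each of 6 libraries, Salmon's estimated counts and TPM for 34989 transcripts (FlyBase release 6). They also deposited a table of 8470 genes with normalized signal values, which are gene counts after division by library factors with a small dependence on the gene, and with their own log2 fold changes and p-values, which were not used. The submitters' processing notes name other tools (TopHat2 2.1.0, HTSeq 2.7.6), whereas the files have Salmon's format.

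Transcript estimates were added up to 17609 genes (BDGP6.54, Ensembl release 115) and rounded. The 44 transcripts in no gene, at most 0.345% of the estimated counts, were left out. Genes passing filterByExpr (9080) were compared with edgeR 4.0.16 (R 4.3.3; TMM, quasi-likelihood test, Benjamini-Hochberg adjustment over all genes tested, threshold 0.05), with all 6 libraries, 3 a group, and no covariates. The standard error is the log2 fold change divided by the square root of F, and 95% intervals are approximate. Levels of different genes were compared by the deposited TPM only. Shares and ratios were compared with exact permutation tests. Counting error (3 counts as the floor) ranges from 0.0245 to 0.0389 CPM. Library pairs within a group differed beyond sampling noise (lowest ratio of chi-square to degrees of freedom 69.9). The study describes 3 independent samples per line. The script was tested on simulated data. DESeq2 1.42.0 and limma 3.58.1 served as alternatives.

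The members and lists were chosen with earlier results of these data known. Named genes are the 10 members, Nf-YA, their closest relatives, the listed metal genes past the threshold, and the 5 genes most like MtnB. The neighbors of MTF-1 and the markers esg, Dl, N, Sox21a, sc, nub, mex1, lab, sls, Col4a1, He and Lsp2 are named beside these. Of 50 listed symbols, 2 were older names of genes already listed. Figures were drawn with matplotlib 3.10.9. Sequences of the genes are not used here.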

Additional observations from a re-analysis of the deposited data

How the results depend on the processing

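Results were recomputed under 14 alternatives, except MtnC, which had 13 because it does not reach 10 counts in every library. MtnB kept its direction in all of them, and the other 9 genes passed the threshold in none (smallest adjusted p = 0.0596, for MTF-1). Leaving out single libraries gave 0 to 1 called among the 10 genes, 314 to 736 genes that fell and 188 to 507 that rose, with the lowest counts of fallen genes without NF-YA RNAi library 4 and of risen genes without library 5. In the metal list it gave 0 to 1 that fell and 1 to 3 that rose. Genes called lower in the metal list numbered 2 with DESeq2 and 0 with scaling by library size alone. That scaling gave 541 lower and 784 higher calls over all genes, against 728 and 562.

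The sign of some uncalled genes changed. With scaling by library size alone, the log2 fold change was 0.03 for MtnA and 0.069 for Irp-1A. Leaving out single libraries gave -0.20 to 0.16 for MtnA, -0.087 to 0.036 for Irp-1A and -0.015 to 0.52 for Ctr1A. The ferritin chain ratio differed by -0.008 with estimated counts in place of TPM. The cause was not tested.

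With the replicate numbers of the titles as a block, 271 genes rose, the metal list had 2 risen and 0 fallen genes, and the log2 fold change was 0.29 for MtnA, 0.023 for MtnD and -0.14 for Ctr1A. This block keeps only the 2 numbers that the groups share. Control library 3, where MtnB was highest, and NF-YA RNAi library 5, where it was lowest, therefore did not enter the contrast. The log2 fold change of MtnB was -1.16 in this fit. Deviations of same-numbered libraries from their group means correlated at 0.05 and -0.02, against -0.084 to 0.041 for libraries of unlike number. With only 3 libraries a group, these correlations cannot decide whether the numbers pair the libraries. For MtnC, leaving out NF-YA RNAi library 2 gave -2.85 and leaving out library 5 gave -0.26.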
